A study of Mus musculus with 23 samples.

Results

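The mRNAs of 10 genes of TGF-beta and BMP signalling were followed in cultured hippocampal neurons in which Nedd8 had been deleted. They are the ligand genes Tgfb1, Tgfb2, Tgfb3, Inhba, Bmp4, Bmp6 and Bmp7, the receptor-regulated Smad gene Smad3 and the inhibitory Smad genes Smad6 and Smad7. They were chosen by name, through the Ensembl identifiers that the GRCm39 annotation gives these symbols, from 56941 genes in the count tables. All 10 were found. Primary hippocampal neurons were taken on the day of birth from mice homozygous for the conditional allele Nedd8cKO of a line generated in FVB/N embryos, in which loxP sites flank exons of Nedd8. The published statement on animals gives the background of the homozygous mice as C57BL/6N. Every culture carried this allele. After 1 day in vitro the neurons received lentivirus that expressed either RFP alone (RFP) or the recombinase CRE with RFP (CRE) from the Synapsin1 promoter, which is active in neurons. By the labels RNA was extracted at day 12, and by the published methods a day later. There were 23 libraries, 12 CRE and 11 RFP, and the comparison used 11 CRE and 10 RFP libraries. The first number in the library names was read as the culture, which gives 3 cultures. Neither the labels nor the published text call it so in words. Nor do they state that CRE and RFP libraries of the same number shared a culture, so "culture" below means this number only.

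Members of the TGF-beta superfamily are secreted as dimers and bind pairs of type I and type II serine/threonine kinase receptors. Activated type I receptors phosphorylate receptor-regulated Smads, Smad2 and Smad3 for TGF-beta and activin, and Smad1, Smad5 and Smad9 for BMPs, which then enter the nucleus with Smad4. Smad6 and Smad7 are induced by the pathway and block it at the receptor, and in the nervous system these signals are known for roles in dorsal patterning, neuronal survival, synapse formation and glial fate.

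Of the 9 genes that passed the filter on low counts, 6 had an adjusted p under 0.05 (edgeR, quasi-likelihood, Benjamini-Hochberg over 14488 genes), against 30.2% of all genes tested. Smad3, Smad6, Smad7 and Tgfb3 rose in CRE libraries (16.4% of all genes tested did so), and Bmp4 and Bmp7 fell (13.8%). Tgfb2, Inhba and Bmp6 did not pass the test, and Tgfb1 was too scarce to be tested. Smad6 was tested only through the group in which it was high, so the count of 6 and the median describe the 9 genes and are no evidence about the 10. The median log2 fold change of the 9 genes was 0.26, and that of all genes tested was 0.02. Over all genes 2374 were higher and 1996 lower, and with library totals alone 2949 and 1533, while the 10 genes gave 4 higher and 2 lower under both. Smad3 alone among them passed in every alternative setting in which it was tested, and the other 5 calls each failed or could not be tested in at least 1. Without culture 2, Smad3 was the only one of 9 that passed, against 14.3% of all genes tested, and without culture 1 there were 3 of 8, against 25.9%. The published methods text leaves out CRE libraries 1-3 (culture 1, library 3) and 3-3, while the count table given with it, used here, lacks CRE library 3-3 and RFP library 3-2. With the libraries of the methods text 4 of 8 passed, Smad3 and Smad7 higher and Bmp4 and Bmp7 lower, against 37.9% of all genes tested, while Smad6 was not tested and Tgfb3 had an adjusted p of 0.0523 in edgeR. None of the 9 passed an absolute log2 fold change of 1.3 together with a -log10 p of 6, thresholds that the published text states without saying that the p was adjusted. Of all genes tested 2.49% passed them on the unadjusted p and 1.39% on the adjusted p in edgeR. DESeq2 and limma-voom also put 0 of the 9 past both on either p, and 6 had an unadjusted p under 0.05 with each of the 3 tools.

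Total counts ran from 7430401 to 13345552 in the CRE libraries of the comparison and from 9833872 to 17112815 in the RFP libraries. Nedd8 itself, the deleted gene, was at 11.5 ± 3.49 CPM (counts per 1000000 counts of the library, SD, n = 11) in CRE and 61.4 ± 10.2 CPM (n = 10) in RFP libraries, so the labels held in this respect. CRE library 1-3 and RFP library 2-4 stood apart in mitochondrial counts, with 0.261% and 3.43%, as did CRE library 3-3 with 1.83% and 1546796 counts in all, against 7.0% to 11.1% in the other 20. The rank correlation of a gene's GC content with its deviation from the other libraries was 0.736 in CRE library 1-3. It was 0.408 in RFP library 2-4, 0.538 in CRE library 3-3 and -0.308 to 0.102 in the other 20. The summed level of 8 neuronal markers was 2667.6 to 5411.5 CPM in CRE and 6289.5 to 7254.2 CPM in RFP libraries, so neurons were present in all, but markers of astrocytes and of the oligodendrocyte lineage were abundant too. Of the neuronal markers 5 of 8 were lower in CRE libraries, and of 8 astrocyte markers 4 were lower and 1, Gja1, was higher. The summed level of the astrocyte markers was 4650.6 against 6680.9 CPM in culture 1, 4052.8 against 6007.5 in culture 2 and 3621.0 against 4049.0 in culture 3, for CRE and RFP libraries. The part of these shifts in the gene differences was not tested. In bulk RNA of this kind, fewer cells of a type and less RNA per cell cannot be told apart. By the published legends 3 animals or biological replicates lie behind the libraries, the number of cultures here. Nothing in the sources states in words that libraries of 1 culture number came from separate dishes, so p-values measure the spread between these libraries, which may in part be technical. At most 1.97% of the 31-base stretches of any of the 10 genes occurred in another gene's transcripts, and none for the 3 Smads.

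Smad3 and Smad6 are neighbours on chromosome 9, both on the minus strand, with 194864 bases and no other protein-coding gene between them. The annotation lists 5 lncRNA genes and 2 pseudogenes in that interval. The bases upstream of the start sites of these 2 genes, which had the lowest p among the 10, are shown with those of Bmp4 and Bmp7, the 2 that fell, to compare their base composition. They were read from GRCm39 5′ to 3′ on the minus strand, to the base before the start of the canonical transcript, with CG dinucleotides in capitals. For Smad6 only the 127 bases free of exons of its other transcripts are given.
Smad3, chr9:63665477-63665726: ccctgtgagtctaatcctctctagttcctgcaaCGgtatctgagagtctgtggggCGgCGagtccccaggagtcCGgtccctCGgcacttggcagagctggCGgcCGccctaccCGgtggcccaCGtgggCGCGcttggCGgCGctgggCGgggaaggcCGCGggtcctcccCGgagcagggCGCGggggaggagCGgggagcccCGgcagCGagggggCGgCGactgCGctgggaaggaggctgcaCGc
Smad6, chr9:63929412-63929538: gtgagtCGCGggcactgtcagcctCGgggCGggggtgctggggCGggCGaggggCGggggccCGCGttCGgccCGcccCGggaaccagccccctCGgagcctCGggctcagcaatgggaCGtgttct
Bmp4, chr14:46628127-46628376: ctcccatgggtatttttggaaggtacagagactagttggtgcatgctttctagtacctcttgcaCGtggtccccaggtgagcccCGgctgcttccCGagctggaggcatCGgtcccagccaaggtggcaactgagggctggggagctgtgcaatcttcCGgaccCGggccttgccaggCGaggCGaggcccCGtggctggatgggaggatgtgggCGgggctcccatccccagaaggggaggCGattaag
Bmp7, chr2:172782411-172782660: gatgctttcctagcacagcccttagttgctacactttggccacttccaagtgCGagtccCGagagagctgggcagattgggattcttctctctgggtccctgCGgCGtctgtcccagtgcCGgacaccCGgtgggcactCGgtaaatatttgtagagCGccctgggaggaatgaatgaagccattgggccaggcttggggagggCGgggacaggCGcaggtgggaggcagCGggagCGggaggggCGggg
The capitals are dense in the upstream stretches of both Smads and thinner in those of both BMPs. Over 250 bases, Smad3 held 26 CG dinucleotides and Smad6 held 27, while Bmp4 held 11, Bmp7 held 13 and the median of 21667 upstream windows of that length was 8. The GC content was 73.6% for Smad3, 71.2% for Smad6, 63.2% for Bmp4 and 62.8% for Bmp7, with a median of 53.2% over all windows. Smad7 and Tgfb3, which also rose, held 19 and 9 CG dinucleotides over 250 bases. Their GC content was 61.6% and 49.2%, below that of Bmp4 and Bmp7. In the window of Tgfb3 only the last 12 bases are free of exons of its other transcripts. A link between composition and the direction of change was not tested. The Smad-binding palindrome GTCTAGAC, the shorter element CAGACA and the GC-rich element GGCGCC were searched on both strands. None of these was present in the 4 windows, and they occurred in 0.2%, 15.6% and 9.3% of all windows. In the windows of the other 6 genes, Smad7 held 1 palindrome, Tgfb2 held 1 CAGACA and no other match was found. These matches describe the letters of a short window and no binding.

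**Figure D1:**
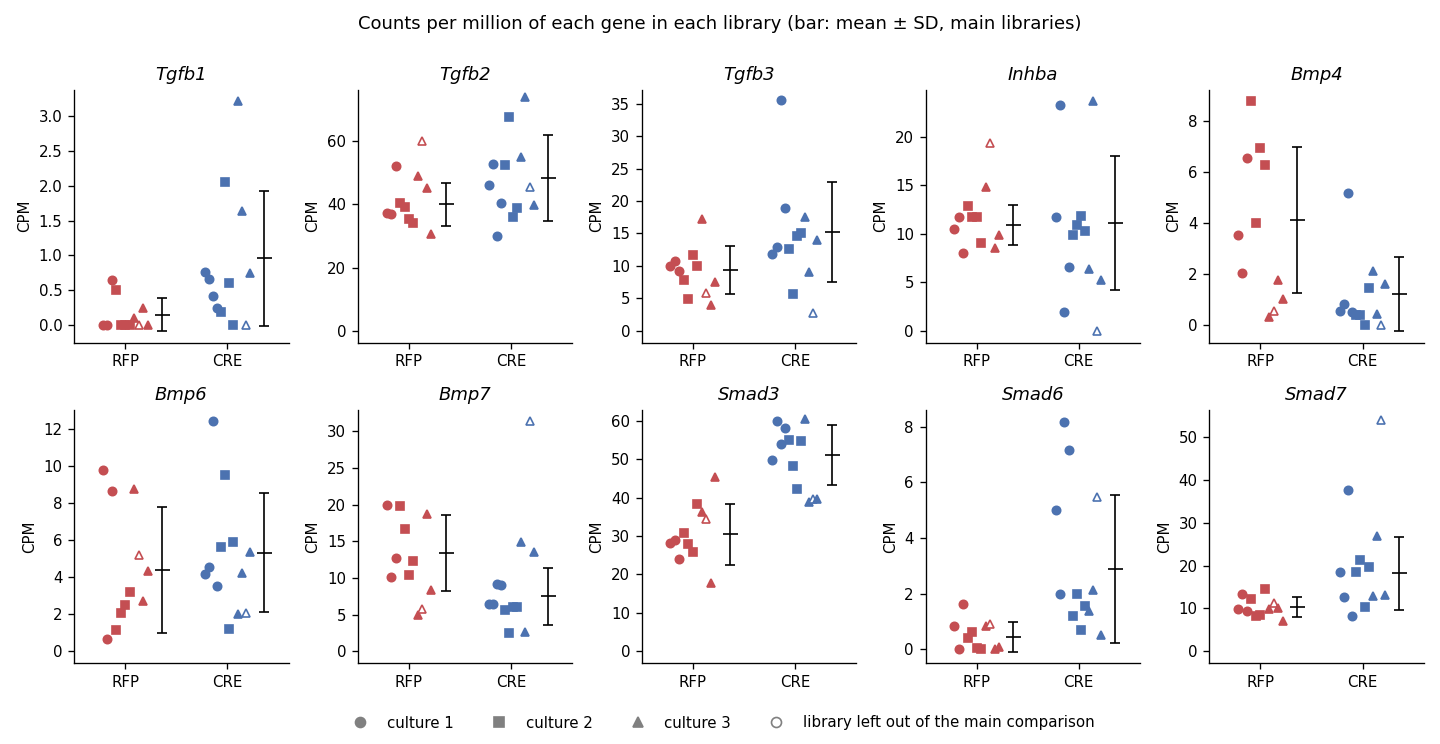
Level in CPM (y axes) of each of the 10 genes in each RFP and CRE library, with the shape of the point giving the culture, open points the 2 libraries outside the comparison and bars the mean ± SD of the others. Smad3 separates the groups best, with 8 of 11 CRE libraries above every RFP library, while Tgfb2, Inhba and Bmp6 overlap widely.

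Smad3 (ENSMUSG00000032402), at chr9:63554049-63665476, encodes the Smad that carries TGF-beta and activin signals to promoters. In the CRE libraries it stood at 39.0 CPM in the lowest, 53.8 in the median and 60.5 in the highest library. In the RFP libraries the corresponding levels were 17.7, 28.6 and 45.3 CPM. The groups overlapped only through RFP library 3-4: 8 of 11 CRE libraries lay above all RFP libraries and 9 of 10 RFP libraries below all CRE libraries. The log2 fold change was 0.73 ± 0.14 (SE), a 1.66-fold difference, with an adjusted p of 0.000235 in edgeR. Within cultures 1 and 2 every CRE library was above every RFP library, at 55.4 ± 4.54 against 27.1 ± 2.69 CPM (SD, n = 4 and 3) and 50.1 ± 6.01 against 30.8 ± 5.50 CPM (n = 4 and 4). In culture 3 the levels were 46.4 ± 12.2 against 33.1 ± 14.1 CPM (n = 3 and 3) and overlapped.

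Smad6 (ENSMUSG00000036867), at chr9:63860341-63929793, encodes an inhibitory Smad that acts mainly on BMP receptors. It was scarce in RFP libraries, with 53 counts over the 10 libraries and none in 3 of them, a median of 0.259 CPM and a highest value of 1.63 CPM. In CRE libraries it had 349 counts in all, from 0.503 CPM in the lowest to 1.98 in the median and 8.17 in the highest. Of the CRE libraries, 6 of 11 were above every RFP library, and the 3 highest values all came from culture 1. The highest of them was that of CRE library 1-3, which stood apart in mitochondrial counts. Smad6 reached the filter level of about 0.9 CPM in 9 CRE libraries and 1 RFP library, the smallest number of libraries that the filter accepts. It thus entered the test only through the group in which it was high, and its fitted difference is given with that limit: a log2 fold change of 2.64 ± 0.68, or 6.21-fold, with an adjusted p of 0.00434 in edgeR. It dropped out of the test when any of those CRE libraries was left out. The means by culture were 5.58 against 0.820 CPM in culture 1, 1.35 against 0.273 in culture 2 and 1.35 against 0.309 in culture 3, in CRE and RFP libraries respectively.

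Smad7 (ENSMUSG00000025880), at chr18:75500374-75529006, encodes the other inhibitory Smad, which recruits ubiquitin ligases to TGF-beta receptors. In CRE libraries it ran from 8.27 through a median of 18.4 to 37.7 CPM, and in RFP libraries from 6.96 through 9.87 to 14.4 CPM. The groups overlapped, with 6 of 11 CRE libraries above all RFP libraries. The highest CRE value was that of library 1-3, the one with 0.261% mitochondrial counts, and CRE library 3-3, outside the comparison, was higher still at 53.9 CPM. The log2 fold change was 0.80 ± 0.22 (1.74-fold), with an adjusted p of 0.00803 in edgeR, and it was 0.63 with an adjusted p of 0.0102 without CRE library 1-3. It did not pass without culture 2 (adjusted p = 0.0712) or without culture 3 (0.0736, edgeR). In culture 3 all CRE libraries were above all RFP libraries (17.6 ± 8.07 against 8.94 ± 1.72 CPM, n = 3 and 3), and in cultures 1 and 2 they overlapped.

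The 2 inhibitory Smads were also set against each other. Over all libraries of a group, Smad7 had 6.23 times the counts of Smad6 in CRE and 23.4 times in RFP libraries. The log2 ratio of Smad7 to Smad6 counts within a library, with 0.5 added to each count, was 3.01 ± 1.22 (SD, n = 11) in CRE and 5.48 ± 2.24 (n = 10) in RFP libraries. The difference of -2.47 had an adjusted p of 0.00984 in a two-sided permutation test over libraries with 100000 resamples, adjusted over the 4 ratios tested, and of 0.00669 in an exact permutation test within the 3 cultures. The zeros of Smad6 make the RFP value depend on the added count, and the difference did not pass without culture 1 (adjusted p = 0.0501) or without culture 2 (0.0761, exact permutation tests).

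**Figure D2:**
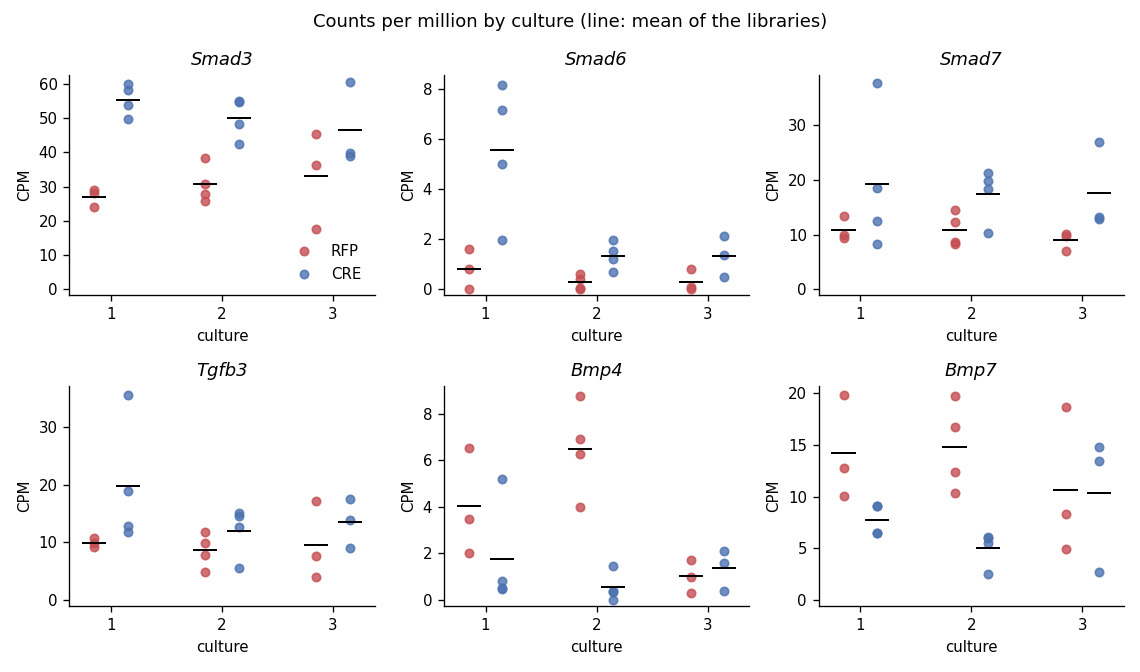
Level in CPM (y axes) of the 6 genes with an adjusted p under 0.05 in the RFP and CRE libraries of each culture (x axes), with a line at the mean of the libraries. The mean of Smad3 is higher in CRE libraries in each culture, whereas the means of Bmp4 and Bmp7 are lower in cultures 1 and 2. For both BMP genes the libraries overlap in culture 3, where the mean of Bmp4 is higher in CRE libraries. For Bmp4 they overlap in culture 1 too.

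Among the TGF-beta ligands, Tgfb2 (ENSMUSG00000039239, chr1:186354985-186438294) had the highest level per exon length in RFP libraries. It ran from 30.0 through 46.0 to 74.2 CPM in CRE and from 30.6 through 38.2 to 52.1 CPM in RFP libraries. The groups overlapped over most of their range. Its log2 fold change was 0.26 ± 0.15, and it did not pass the test (adjusted p = 0.198, edgeR).

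Tgfb3 (ENSMUSG00000021253, chr12:86102756-86126301) lay at 5.62, 13.9 and 35.6 CPM in the lowest, median and highest CRE library, and at 3.96, 9.53 and 17.2 CPM in RFP libraries. The highest value was again that of CRE library 1-3. Only 3 of 11 CRE libraries were above all RFP libraries. Its log2 fold change was 0.69 ± 0.26 with an adjusted p of 0.0497 in edgeR, close to the threshold, and without CRE library 1-3 it was 0.48 with an adjusted p of 0.0936. Leaving out any 1 of 18 of the 21 libraries took the adjusted p over 0.05, as did 11 of 15 other settings. Tgfb3 shares 179 exon bases with Ttll5 on the opposite strand, and the strand setting of the counting is not given in the sources used here.

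Tgfb1 (ENSMUSG00000002603, chr7:25386390-25404506) was close to absent at this depth. It had 19 counts over the 10 RFP libraries, 6 of which had none, and 121 counts over the 11 CRE libraries, 1 of which had none. The highest levels were 3.22 CPM in CRE library 3-1 and 0.639 CPM in an RFP library of culture 1. Of the CRE libraries, 6 of 11 were above every RFP library. Tgfb1 did not pass the filter of the comparison and has no fitted difference there. The log2 ratio of Tgfb2 to Tgfb1 counts was 6.26 ± 1.53 (SD, n = 11) in CRE and 8.64 ± 1.51 (n = 10) in RFP libraries, a difference of -2.38 with an adjusted p of 0.00984 in the same permutation test. For Tgfb3 to Tgfb1 it was 4.50 ± 2.02 against 6.44 ± 1.90, a difference of -1.95 with an adjusted p of 0.0487 in that permutation test. The difference in Tgfb2 to Tgfb1 did not pass without culture 1, and that in Tgfb3 to Tgfb1 did not pass without culture 1, 2 or 3. Both rest on the few counts of Tgfb1 and on the 0.5 added to them.

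Inhba (ENSMUSG00000041324, chr13:16186373-16206206) encodes the subunit of activin A, which signals through Smad2 and Smad3 and is induced by neuronal activity. It ran from 1.91 through 10.2 to 23.7 CPM in CRE and from 8.02 through 11.1 to 14.9 CPM in RFP libraries. The CRE libraries spread to both sides of the RFP range, with 2 above and 4 below it. The lowest value was that of CRE library 1-3, which stood apart in mitochondrial counts. The fit gave a log2 fold change of 0.01 ± 0.29 and an adjusted p of 0.989 in edgeR.

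Of the BMP ligands, Bmp7 (ENSMUSG00000008999, chr2:172709805-172782410) had the highest level per exon length in RFP libraries. It ran from 2.51 through 6.44 to 14.8 CPM in CRE and from 4.95 through 12.6 to 19.9 CPM in RFP libraries. The groups overlapped, with 4 of 10 RFP libraries above all CRE libraries and 2 of 11 CRE libraries below all RFP libraries. CRE libraries differed from RFP libraries by a log2 fold change of -0.86 ± 0.29, or 1.82-fold lower, with an adjusted p of 0.0243 in edgeR. In cultures 1 and 2 every CRE library was below every RFP library (7.77 ± 1.53 against 14.3 ± 5.05 CPM, and 5.03 ± 1.69 against 14.8 ± 4.24 CPM, SD), while culture 3 gave 10.3 ± 6.67 against 10.7 ± 7.14 CPM. CRE library 3-3, outside the comparison, held the highest Bmp7 level of all, 31.4 CPM, and when all 23 libraries entered, the value was -0.50 with an adjusted p of 0.286. The adjusted p was 0.0501 or 0.0502 without RFP library 1-1 or 2-1, 0.116 without culture 1 and 0.432 without culture 2 (edgeR).

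Bmp4 (ENSMUSG00000021835, chr14:46620250-46636745), a ligand that directs dorsal and glial fates, was lower still. It ran from 0.00 through 0.531 to 5.18 CPM in CRE and from 0.310 through 3.75 to 8.76 CPM in RFP libraries. The high CRE value was that of library 1-3, and 4 of 10 RFP libraries were above all CRE libraries. The log2 fold change was -1.82 ± 0.59 (3.52-fold lower), with an adjusted p of 0.0201 in edgeR. The groups were apart in culture 2, at 0.550 ± 0.625 in CRE and 6.48 ± 1.96 CPM in RFP libraries (SD, n = 4 and 4), and overlapped in culture 1 (1.75 ± 2.29 against 4.02 ± 2.29 CPM) and in culture 3 (1.37 ± 0.875 against 1.02 ± 0.716 CPM). Without culture 2 the log2 fold change was -0.71 with an adjusted p of 0.556. Of the exon bases of Bmp4, 22.5% are shared with Gm15222 on the opposite strand, which had 59 counts over the 23 libraries against 657 for Bmp4.

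Markers of the oligodendrocyte lineage, cells that are known to express BMP ligands and to respond to them, were lower in the same comparison. Of 7 such markers, 5 fell, among them Sox10 (log2 fold change -3.13), Pdgfra (-2.60) and Cspg4 (-2.22). Their summed level was 424 to 1909.2 CPM in CRE and 646 to 1865.9 CPM in RFP libraries. By culture, its mean was 1045.7 against 1553.9 CPM in culture 1, 729 against 1658.6 in culture 2 and 845 against 1035.0 in culture 3, for CRE and RFP libraries. CRE library 3-3, with the highest Bmp7 and no Bmp4 count, had the highest sum, 3649.8 CPM, of which Olig1, a marker that did not pass the test, made up 3252.2 CPM. There Pdgfra was at 10.2 CPM and Sox10 at 12.3 CPM, both within the range of the other CRE libraries. Without Olig1 the sum was 398 CPM in that library, 130 to 464 CPM in the CRE and 178 to 905 CPM in the RFP libraries of the comparison. The part of these cells in the BMP results was not tested.

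The ratio of Bmp7 to Bmp4 counts, on the log2 scale, was 3.21 ± 1.58 (SD, n = 11) in CRE and 2.07 ± 1.12 (n = 10) in RFP libraries, and this difference of 1.14 did not pass the permutation test (adjusted p = 0.0628). Over the 21 libraries, after the mean of each group was taken off, the log2 CPM of Bmp4 and Bmp7 had a Pearson r of 0.58, the highest among the 36 pairs of tested genes. These 21 points share libraries and cultures.

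Bmp6 (ENSMUSG00000039004, chr13:38529065-38684280) encodes a BMP best known as a regulator of iron metabolism. Its levels were 1.19, 4.54 and 12.4 CPM in the lowest, median and highest CRE library and 0.679, 2.93 and 9.75 CPM in RFP libraries, with wide overlap. The highest CRE value was that of library 1-3. Its log2 fold change was 0.26 ± 0.42, with an adjusted p of 0.697 in edgeR. Bmp6 shares 226 exon bases with Txndc5 on the opposite strand, which had 17620 counts against 1186 for Bmp6. Without the strand setting of the counting it is not known how reads in these bases were assigned, or whether Bmp6 lost or gained counts there.

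**Figure D3:**
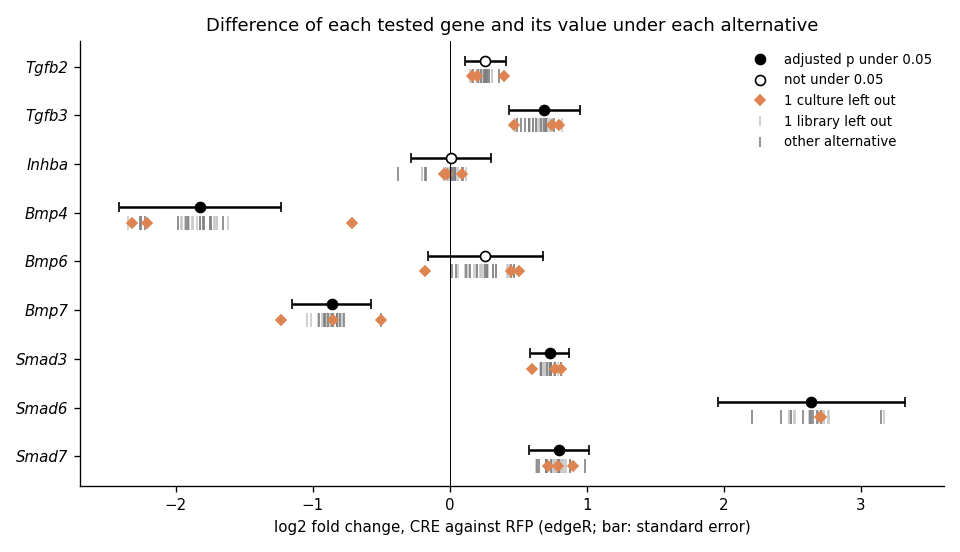
Log2 fold change of each of the 9 tested genes between CRE and RFP libraries (x axis) with its standard error as a bar, filled where the adjusted p is under 0.05, above marks for its value under each alternative. Smad3 stays between 0.60 and 0.81, and Bmp4 moves to -0.71 when culture 2 is left out.

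Divided by the exon length of each gene, the levels can be compared between genes. In RFP libraries the order was Tgfb2 (6.40 ± 1.09 CPM per kb, SD, n = 10), Smad3 (5.24 ± 1.36), Bmp7 (3.03 ± 1.17), Smad7 (2.17 ± 0.495), Tgfb3, Inhba, Bmp6, Bmp4, Smad6 and Tgfb1 (0.0291 ± 0.0467). Of the 9 pairs of neighbours in this order, 7 differed by less than the larger of their 2 SDs, and Smad3 and Bmp7, and Bmp4 and Smad6, by more. In CRE libraries the order was Smad3 (8.80 ± 1.35 CPM per kb, n = 11), Tgfb2 (7.76 ± 2.17), Smad7 (3.83 ± 1.78), Tgfb3 (2.92 ± 1.47), Bmp7 (1.69 ± 0.886), Inhba, Bmp6, Smad6, Bmp4 and Tgfb1 (0.188 ± 0.191), where Tgfb2 and Smad7 differed by more than the larger SD and the other 8 pairs of neighbours by less. Smad3 and Tgfb2 thus formed the upper end and Tgfb1 the lower end in both groups.

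**Figure D4:**
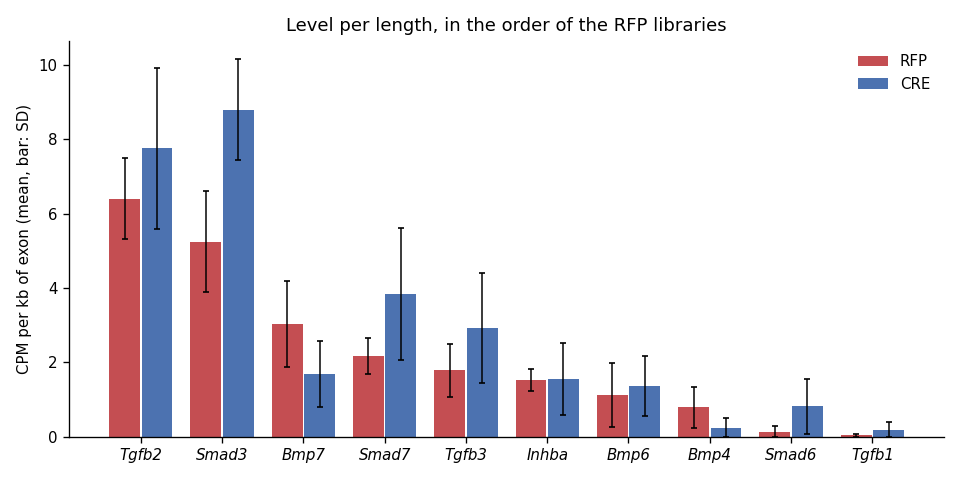
Mean level in CPM per kb of exon (y axis) of the 10 genes in RFP and CRE libraries, with the SD as a bar that is cut at 0, in the order of the RFP libraries. Tgfb2 and Smad3 are the 2 highest in both groups and Tgfb1 the lowest.

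Of 117 other genes of the pathway, in 8 lists by role that share no gene with the 10, 90 could be tested and 37 passed, 28 higher and 9 lower in CRE libraries, with a median log2 fold change of 0.32. That is 41.1%, against 30.2% of all genes tested. Without CRE library 1-3 and RFP library 2-4, 45 of 91 passed, 32 higher and 13 lower, against 38.1% of all genes, and without culture 2 there were 21 of 91, against 14.3%. With library totals alone and no scaling factors, 33 were higher and 5 lower. The lists were chosen with earlier results of these data known. Some genes passed the filter mainly through the group in which they were high. RFP medians were under the filter level of about 0.9 CPM for Gdf6 (0.00), Grem1 (0.415), Eng (0.438) and Timp1 (0.17), as was the CRE median of Mstn (0.41). The count of 37 thus describes the tested genes and is no evidence about the 117. Among the other ligands, 11 of 26 were tested and 2 rose and 2 fell, or 36.4% against 30.2% of all genes. Bmp2, a ligand that signals through the same receptors as Bmp4, rose from 1.6 ± 0.889 to 12.6 ± 3.94 CPM, a log2 fold change of 2.94 ± 0.31 (adjusted p = 8.61e-08, edgeR). Gdf6, a related BMP, was at 0.159 ± 0.356 CPM in RFP libraries, 7 of which had no count, and at 5.17 ± 3.24 CPM in CRE libraries. In both genes all 11 CRE libraries were above all 10 RFP libraries, opposite in direction to Bmp4 and Bmp7. Both were named for a small p, from which such separation in part follows. The share of all genes tested without overlap was not counted. This limit holds also for the other pathway genes described below as without overlap. Mstn, which encodes myostatin, fell from 2.31 ± 1.10 to 0.482 ± 0.473 CPM, and Inhbb, the subunit of activin B, from 41.0 ± 8.40 to 30.0 ± 11.2 CPM. The log2 fold change of Inhbb was -0.47 with an adjusted p of 0.0316 in edgeR, and it did not pass in 5 of 15 other settings, among them all 23 libraries and no scaling factors, nor without RFP library 2-4 or 3-3.

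Of 12 receptor genes tested, 2 rose and 1 fell, or 3 of 12 against 30.2% of all genes. Tgfbr2, the type II receptor for TGF-beta, went from 7.81 ± 3.07 to 23 ± 5.25 CPM, with every CRE library above every RFP library (log2 fold change 1.55 ± 0.20). Its partner Tgfbr1 was at 21.8 ± 7.66 and 22.2 ± 9.18 CPM and did not pass. Eng, a co-receptor best known from endothelial cells, rose with a log2 fold change of 2.08 ± 0.53, and Bmpr1b, a type I BMP receptor, fell from 18.4 ± 7.19 to 8.73 ± 4.34 CPM (-1.09 ± 0.32). The summed level of 7 endothelial markers was 1.63 to 12.0 CPM in CRE and 2.75 to 9.57 CPM in RFP libraries. Only Kdr was tested, and it was lower, at 1.85 ± 0.993 CPM in CRE and 4.30 ± 2.73 CPM in RFP libraries. Cdh5 and Esam were at 1.17 and 1.01 CPM in CRE and at 0.503 and 0.369 CPM in RFP libraries. The defining markers Cldn5 and Pecam1 were each under 0.5 CPM on average over both groups, with Pecam1 at 0.623 CPM in RFP libraries.

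All 3 Smads that carry BMP signals rose: Smad9 from 9.37 ± 5.11 to 28.1 ± 5.85 CPM, Smad5 from 60.8 ± 10.2 to 98.5 ± 25.7 CPM and Smad1 from 29.4 ± 5.39 to 43.4 ± 5.79 CPM. Their log2 fold changes were 1.57, 0.68 and 0.55. Smad2 and Smad4, the other 2 of 5 in that list, gave 0.26 ± 0.16 and 0.18 ± 0.10 and did not pass. The share of the list that passed was 60%, against 30.2% of all genes.

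**Figure D5:**
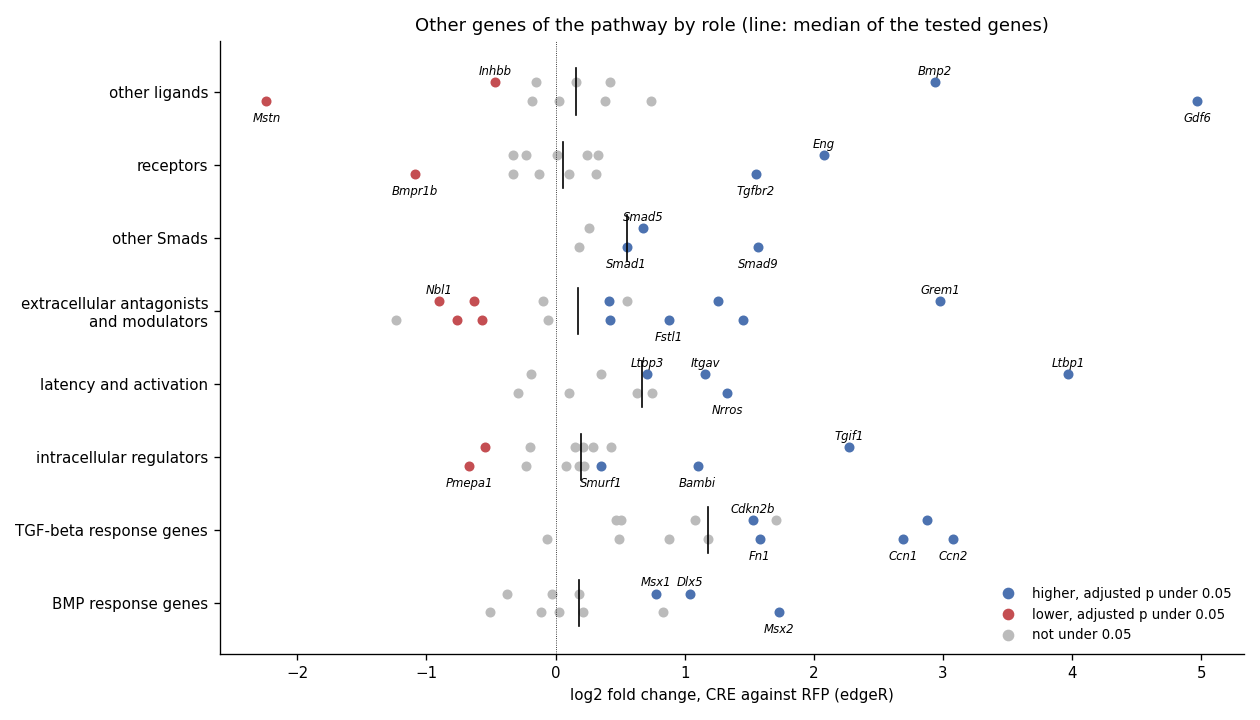
Log2 fold change between CRE and RFP libraries (x axis) of the 90 other pathway genes tested, in rows by role, coloured by direction where the adjusted p is under 0.05, with a line at the median of each list. The rows for other Smads, latency and activation, and both sets of response genes hold 3, 4, 5 and 3 higher genes and no lower one. Without CRE library 1-3, latency and activation and the BMP responses each held 1 lower gene.

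The secreted antagonists and modulators moved in both directions, with 6 of 14 tested higher and 4 lower. That is 71.4% against 30.2% of all genes, and without culture 2 it was 2 of 14, against 14.3%. Grem1, which binds and blocks BMPs, rose with a log2 fold change of 2.98 ± 0.62, and Fstl1, a secreted follistatin-like protein, with 0.88 ± 0.16. Nbl1, another BMP antagonist, fell from 106 ± 21.4 to 57.5 ± 24.6 CPM. Among genes for the latency and activation of TGF-beta, 4 of 10 rose and none fell, or 40% against 30.2% of all genes. Without CRE library 1-3, 4 genes of this list rose and 1 fell. Ltbp1, which tethers latent TGF-beta to the matrix, rose from 1.13 ± 0.683 to 18.3 ± 6.30 CPM with no overlap (3.97 ± 0.30, adjusted p = 4.11e-10, edgeR). Itgav, an integrin subunit that frees TGF-beta from its latent form, rose from 69.1 ± 15.3 to 156 ± 48.8 CPM, and Ltbp3 and Nrros, which also bind latent TGF-beta, rose with log2 fold changes of 0.71 and 1.33.

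Of 14 intracellular regulators, 3 rose and 2 fell, or 35.7% against 30.2% of all genes. Tgif1, a transcriptional repressor that binds Smads, rose from 3.26 ± 1.71 to 15.9 ± 4.95 CPM, with every CRE library above every RFP library. Bambi, a decoy receptor, rose with a log2 fold change of 1.10 ± 0.24 and the ubiquitin ligase gene Smurf1 with 0.35 ± 0.11. Pmepa1, which like Smad7 dampens TGF-beta signals and is induced by them, fell from 21.4 ± 3.10 to 13.6 ± 5.94 CPM, and Skil was the other gene that fell.

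Of 13 genes tested in the list of TGF-beta responses, 5 rose and none fell, or 38.5% against 30.2% of all genes. The median log2 fold change of this list was 1.18. Ccn2 rose from 10.2 ± 4.50 to 87.3 ± 36.2 CPM and Ccn1 from 16.1 ± 11.3 to 106 ± 32.2 CPM, both matricellular proteins and both without overlap. Cdkn2b, an inhibitor of the cell cycle, and Fn1, which encodes fibronectin, rose with log2 fold changes of 1.53 ± 0.19 and 1.58 ± 0.27, and Timp1 was the fifth. Of 11 genes in the list of BMP responses, 3 rose, or 27.3% against 30.2% of all genes. They were the homeobox genes Msx2 (1.73 ± 0.40), Dlx5 (1.04 ± 0.25) and Msx1 (0.78 ± 0.27), while Id1, Id2, Id3 and Id4, common readouts of BMP signalling, gave -0.51, 0.03, -0.38 and -0.03 and did not pass. Without CRE library 1-3, 2 genes of this list rose and 1 fell. Msx1 did not pass in 7 of 15 other settings or when any 1 of 9 of the 21 libraries was left out, CRE library 1-3 among them. Many of these genes also respond to other signals. Several are abundant in mural cells and fibroblasts. The summed level of 6 mural cell markers was 30.1 to 277 CPM in CRE and 14.1 to 68.3 CPM in RFP libraries, with Rgs5 and Pdgfrb higher. That of 7 markers of fibroblasts and meninges was 84.7 to 423 CPM in CRE and 8.90 to 135 CPM in RFP libraries, of which Foxc1 alone among 6 tested passed. Dcn was at 12.4 ± 15.0 CPM in CRE and 25.9 ± 12.8 CPM in RFP libraries (-1.08 ± 0.53), and Lum, Col1a2, Col3a1 and Col1a1 gave 0.44, 0.88, 1.47 and 1.18. None of these 5 passed, nor did the mural marker Acta2 (-0.07 ± 0.61). The part of these cells in the results on ligands, Smads and response genes was not tested.

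For the 2 genes with the lowest p, the 3 genes most alike over the 21 libraries, by Pearson r of log2 CPM after the group means were taken off, were Gm7286 (0.77), Ifi35 (0.69) and Gpr83 (0.69) for Smad3 and Angptl2 (0.76), Mt2 (0.76) and Gpc4 (0.74) for Smad6. Without CRE library 1-3 and RFP library 2-4 these values lay between 0.66 and 0.79. The genes were picked for the highest r in a search over many genes, from which high values in part follow. Leaving out those libraries keeps the same picked genes and most of the same libraries, so it is no separate check. The r that such a search gives by chance was not tested. Smad6 also had only 53 counts over the 10 RFP libraries and none in 3 of them.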

How the data were processed

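Poly(A) RNA of primary hippocampal neurons was sequenced in 23 libraries. Per the labels and methods, the authors used bcl2fastq 2.20.0.422, STAR 2.7.8a on GRCm39 with Ensembl annotation, and featureCounts 1.5.0-p1, and deposited raw counts per gene and library. The published methods name a stranded library kit. The strand setting of the counting and the handling of reads with several matches are not given in the sources used here. Genes were named from a GENCODE annotation of GRCm39, which covered 56323 of 56941 identifiers and 99.95% of counts. No sequences of proteins were used.

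The members, gene lists and tests were chosen with earlier results of these data known. The comparison used the 21 libraries of the study's own count table. R 4.3.3 with edgeR 4.0.16 was run with filterByExpr (about 0.9 CPM in at least 10 libraries), TMM factors and a robust quasi-likelihood fit, with Benjamini-Hochberg adjustment over 14488 genes and no covariate. The fit was tested on simulated data. CPM values used TMM factors over 23 libraries, and levels per kb used the union of exons. Ratios of counts had 0.5 added and were compared by permutation over libraries (scipy 1.17.1), and within cultures by all 49000 reassignments. Named were all members, up to 4 genes per pathway list with the smallest p among those with an adjusted p under 0.05, Nedd8, and the 3 genes most alike to the 2 members with the smallest p. Names beyond these (Tgfbr1, Smad2, Smad4, Id genes, Skil, Timp1 and markers) were added after their values were seen. Another named entry is not reported here.

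Alternatives were 15 other settings, among them all 23 libraries, the libraries of the methods text, each culture left out, DESeq2 1.42.0, limma-voom (limma 3.58.1), other scaling, no filter, blocks and a GC correction, and each of the 21 libraries left out in turn. Totals in the comparison ran from 7430401 to 17112815 counts.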

Additional observations from a re-analysis of the deposited data

Results flagged for a closer look

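In 5 of the 39 genes checked, 1 RFP library was farther from the other 9 than Dixon's 95% value for 10 samples allows. Chance gives this in about 1 of 20 groups if values are normally distributed. That does not hold for levels near 0, as in Gdf6 and Smad6, which had no count in 7 and 3 of the 10 RFP libraries. Smad6 was at 1.63 CPM in RFP library 1-3 and at 0.00 to 0.828 CPM in the others. Msx2 was at 2.59 CPM in RFP library 2-1 against 0.410 to 1.51 CPM. The other 3 were in RFP library 3-1, where Gdf6 was at 1.14 CPM (others 0.00 to 0.238), Tgif1 at 7.22 CPM (1.54 to 4.40) and Bambi at 9.08 CPM (2.77 to 5.86). All 5 genes were higher in CRE libraries, and the high value lies on the CRE side in each. The pathway genes checked were chosen because they passed the test, and low levels leave little room for a lone low value. No pattern is therefore read from the side of these values. The group of 11 CRE libraries was too large for this check.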

How the results depend on the processing

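The number of the 10 genes with an adjusted p under 0.05, 6 in the comparison as reported, was 3 without culture 1, 1 without culture 2 and 2 with culture and library number as a replicate block, and from 4 to 6 when 1 library was left out. For the other pathway genes 37 became 21 without culture 2, and for all genes 4370 became 2114 without culture 2 and 6920 with no filter on low counts, which tests more genes. The cause of the changes without a culture was not tested, apart from the smaller number of libraries. Smad3 kept its call throughout (log2 fold change 0.60 to 0.81). Tgfb3 lost it in 11 of 15 settings, Bmp7 in 4, Bmp4 in 3 (without culture 2 and with both replicate blocks, adjusted p = 0.0594 for culture and 0.119 for culture and library number, edgeR), Smad7 in 2 (without cultures 2 and 3, adjusted p = 0.0712 and 0.0736, edgeR) and Smad6 in 1 of the 12 that could test it (without culture 2, 0.0504). Tgfb1 could be tested in 2 settings and passed in both, with no filter (2.57, adjusted p = 0.0328, edgeR) and with counts summed per culture (2.65, 0.0265). Inhba, near 0 as reported, was -0.17 over all 23 libraries, -0.02 without culture 1, -0.04 without culture 3, -0.18 with limma-voom, -0.38 with the block of culture and library number, and -0.20 to 0.12 when 1 library was left out. Bmp6 was -0.18 without culture 2.

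Of the named pathway genes, Msx1 lost its call in 7 of 15 settings, Inhbb in 5, Smurf1 in 4 and Pmepa1 in 3.

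The ratios were also computed under alternatives chosen after the data were seen. Without culture 1 the differences in Tgfb2 to Tgfb1 (-2.41), Tgfb3 to Tgfb1 (-2.24) and Smad7 to Smad6 (-2.02) no longer passed, nor did Tgfb3 to Tgfb1 without cultures 2 (-2.07) and 3 (-1.59) or Smad7 to Smad6 without culture 2 (-2.63). Permutation within cultures changed no call. The difference in Bmp7 to Bmp4 passed over all 23 libraries (1.31), without CRE library 1-3 and RFP library 2-4 (1.26) and without culture 3 (1.86). When 1 library was left out, Tgfb3 to Tgfb1 ran from -2.33 to -1.64 and Bmp7 to Bmp4 from 0.75 to 1.38.

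Libraries with the same numbers did not deviate together (correlations of 0.0212 to 0.136 for cultures and -0.0614 to 0.112 for library numbers), so the numbers were not taken as pairs. With culture as a replicate block, 4 of the 10 genes and 4267 of all genes passed, and with culture and library number 2 and 3152. Depth limits Tgfb1, Smad6 and Bmp4, whose counts reached 0 in single libraries.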
